A study of Mus musculus with 2 samples.

Results

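Blood vessel endothelial cells were picked out in 2 sections of mouse skin by the transcripts they held. A segmented cell was taken when it had at least 20 gene transcripts of a quality score of at least 20, and at least 2 of them came from Vwf, Plvap and Cdh5. Any transcript of the lymphatic genes Prox1 or Mmrn1 removed the cell. This gave 1304 cells in the Utx-cKO section and 1602 in the WT section, together 2906 of 70658 cells with at least 20 transcripts. Because the cells were selected on measured counts of these genes, their levels of Vwf, Plvap, Cdh5, Prox1 and Mmrn1, and their differences from other cells, are given as description.

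Xenium decodes single RNA molecules in place, here with a custom panel of 480 genes on 5 µm sections of paraffin-embedded whole skin from female B6/129 mice. In Utx-cKO skin, Cre under the Krt14 promoter of stratified epithelia had removed Kdm6a (Utx), a histone H3 lysine demethylase, while the other section came from a WT control. Krt14 is not an endothelial gene, so the comparison sets blood vessels of skin whose epithelium carries the deletion beside those of WT skin. With 1 section per genotype nothing was tested: all intervals are exact 95% intervals that cover counting error only, and a ratio of 1.5 is a rule of size. The sources used here do not state the number of animals, their age or the body site. Tissue lay on each slide as 4 separate strips of unstated origin, which are parts of a section and no replicates.

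Blood vessel endothelium lines arteries, capillaries and veins, holds its cells together with VE-cadherin, and is wrapped by pericytes or smooth muscle, the mural cells. Its cells differ along the vessel tree: veins and larger vessels store von Willebrand factor for clotting, while many capillaries carry diaphragms built from Plvap over small openings in the cell. In skin, plexuses of small vessels supply the epidermis and the hair follicles, and deeper vessels run beside fat and the muscle layer.

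The Utx-cKO section was shallower. Cells with at least 20 transcripts numbered 37395 in the Utx-cKO section and 33263 in the WT section, with medians of 48 and 62 transcripts. Endothelial cells held medians of 53 and 72 transcripts and sums of 81653 and 138893. Transcripts lying over a nucleus made up 48.9% of theirs in Utx-cKO and 41.9% in WT. Negative control probes gave 9 and 14 counts in these cells, or 110 and 101 CPM relative to gene transcripts. The sections shared 2 cell identifiers, neither of which belonged to an endothelial cell, and doublets were not called.

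The rule found cells in all 4 strips of both sections. Endothelial cells made up 3.49% (3.30 to 3.68) of cells in the Utx-cKO section and 4.82% (4.59 to 5.05) in the WT section. The strips overlapped, with 2.13%, 3.89%, 4.90% and 2.26% in Utx-cKO and 5.34%, 3.07%, 5.70% and 4.10% in WT. A cell needs 2 marker transcripts to be taken, so the share depends on depth. With every cell thinned to 20 transcripts the shares were 1.51% (1.39 to 1.64) and 1.72% (1.58 to 1.86), a ratio of 0.882. These intervals overlap, which does not show that the shares are equal. Strip 3 supplied 51.5% of the Utx-cKO endothelial cells, and WT strips 1 and 3 supplied 32.1% and 37.8% of the WT ones. Without strip 3 of the Utx-cKO section the ratio of the shares, 0.724, became 0.555. Fewer such cells and less RNA per cell cannot be told apart in these shares. Endothelial cells were drawn large by the segmentation, with a median area of 113 µm² in Utx-cKO and 122 µm² in WT, against 89.4 and 93.6 µm² for all other cells.

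**Figure D1:**
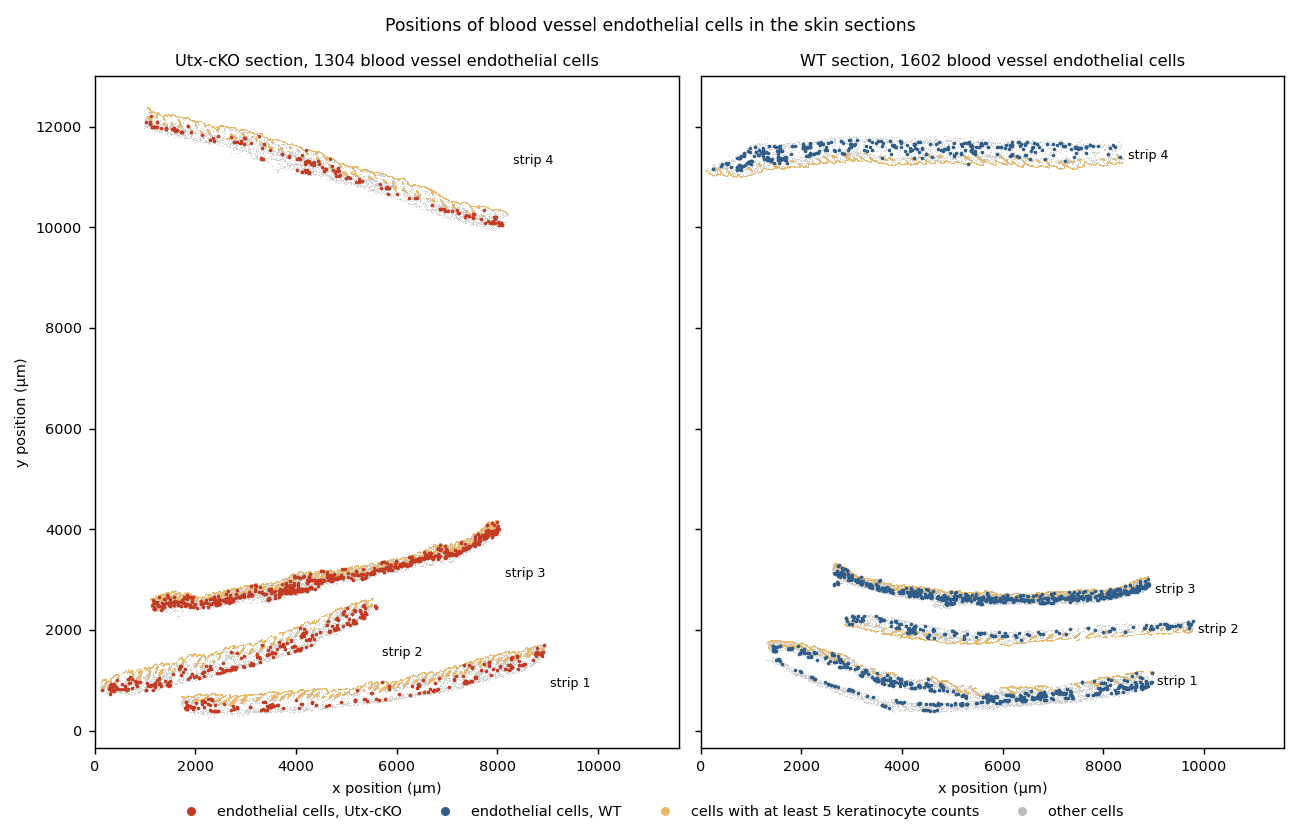
Position in µm of each cell with at least 20 transcripts in the Utx-cKO section (left) and the WT section (right). Large points are the 1304 and 1602 blood vessel endothelial cells, small tan points cells with at least 5 keratinocyte counts and grey points other cells. Endothelial cells lie in all 4 strips of both sections and are densest in strip 3 of each.

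The genes that chose the cells were strong in them and faint elsewhere. Cdh5, which encodes VE-cadherin of the endothelial junctions, had 21175 CPM in Utx-cKO and 19231 CPM in WT endothelial cells, where CPM scales the counts of a set of cells to a common panel total. In all other cells it had 595 and 552 CPM. Plvap, the diaphragm protein, had 20844 and 17172 CPM, against 332 and 330 CPM in other cells. Vwf, the clotting factor carrier of Weibel-Palade bodies, had 15652 and 11484 CPM, against 221 and 161 CPM. Many of the cells sat near the limit of the rule. Exactly 2 marker transcripts were held by 538 Utx-cKO and 536 WT cells, 3 by 281 and 350, and 4 or more by 485 and 716, with 22 and 21 as the highest. Just outside it lay 1770 Utx-cKO and 1717 WT cells with a single marker transcript. A further 170 and 184 cells met the marker minimum but held Prox1 or Mmrn1.

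The label was checked on endothelial genes that the rule did not use, though in the same cells. Only 6 of 26 other blood endothelial markers listed for this purpose are on the panel. Aqp1, a water channel of continuous microvessels, had 25020 CPM in Utx-cKO and 20851 CPM in WT endothelial cells, against 706 and 759 CPM in other cells. Flt1, the VEGF receptor that acts largely as a decoy, had 10875 and 10965 CPM, against 605 and 609 CPM. Ramp2, the partner of the adrenomedullin receptor, had 7667 and 8848 CPM, against 938 and 1469 CPM. Sox17, an arterial transcription factor, had 3209 and 3110 CPM, and Gata2, an endothelial and mast cell factor, 2768 and 2390 CPM. Both were several times lower in other cells, at 495 and 320 CPM for Sox17 and 651 and 391 CPM for Gata2. Rgcc, a cell cycle regulator known as a capillary marker, had 1568 and 2577 CPM, against 429 and 729 CPM. All 6 were thus higher in the selected cells than elsewhere, in both sections.

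Other genes led the ranking of endothelial over other cells too. Among the 15 with the highest mean fold were Cd93, a lectin-like receptor of endothelium, with 6773 CPM in Utx-cKO and 4788 CPM in WT, and Ecscr, an endothelial surface protein, with 4299 and 3362 CPM. Myct1, a small endothelial membrane protein, had 3417 and 2138 CPM. Tm4sf1, a membrane protein of endothelial cells, had 11218 and 8201 CPM, while the G protein subunit Gng11 and the proton-sensing receptor Gpr4 had between 1249 and 2131 CPM. The ranking also held Rgs5, a pericyte gene, with 12823 and 11721 CPM, and Sparcl1, a matricellular protein of vessel walls, with 24102 and 20678 CPM. Cells with at least 2 mural transcripts and no marker transcript had 8632 and 8243 CPM of Rgs5 and 10775 and 11962 CPM of Sparcl1. They also held 98404 and 80453 CPM of keratinocyte markers. With cells of at least 5 keratinocyte transcripts left out and marker transcripts allowed, Rgs5 had 20665 and 17418 CPM, above the level in endothelial cells. Rgs5 is among the genes that chose those cells, so its level there is set by the choice.

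**Figure D2:**
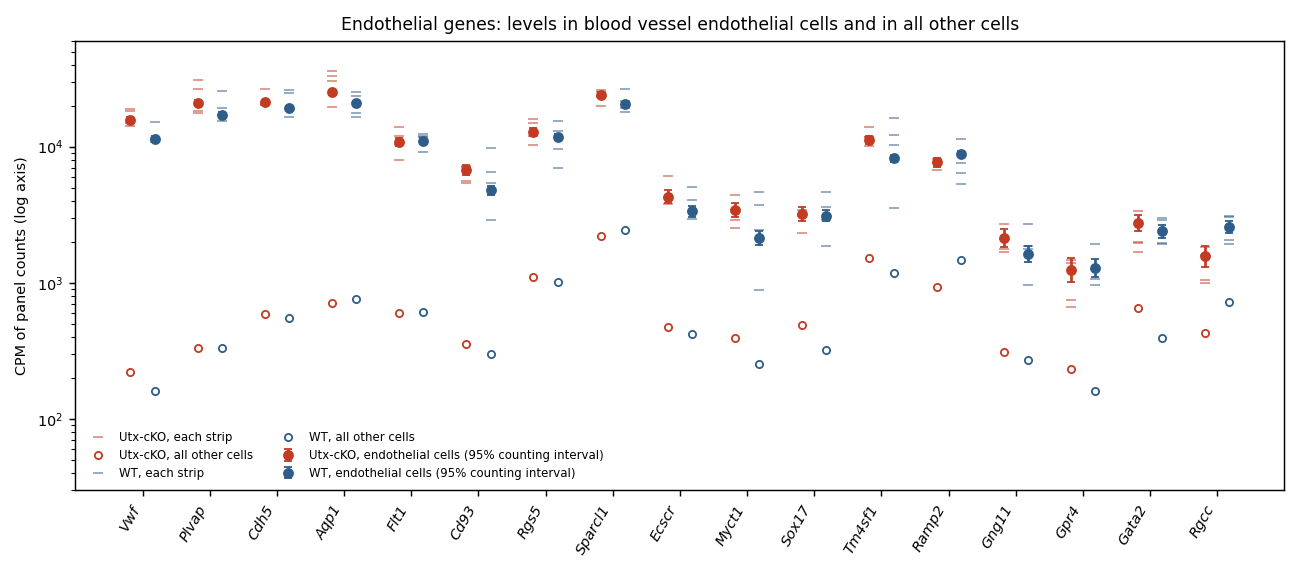
Levels in CPM (log axis) of the marker genes, the leading genes and the listed endothelial genes. Filled points are endothelial cells of the Utx-cKO (left of each pair) and WT section with 95% counting intervals, dashes the 4 strips and open circles all other cells. Filled points lie above the open circles for every gene shown.

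Lymphatic endothelium, taken as cells with at least 2 transcripts of Prox1 and Mmrn1, shared some of these genes and lacked others. It numbered 475 cells in Utx-cKO and 510 in WT. Ramp2 had 10678 and 13074 CPM there, Ecscr 8434 and 8122 CPM and Tm4sf1 13348 and 10779 CPM. Gata2 had 4836 and 3835 CPM and Gng11 3869 and 3653 CPM. Each of these lay above the level in blood vessel endothelium of the same section. Flt1, at 658 and 574 CPM, Cd93, at 890 and 604 CPM, and Aqp1, at 735 and 1721 CPM, were low in lymphatic endothelium. Rgcc was at 0 counts in the Utx-cKO lymphatic cells and at 211 CPM in the WT ones. Pdpn and Tbx1, the lymphatic markers left in the selected cells once Prox1 and Mmrn1 are at 0 by the rule, gave 857 CPM in Utx-cKO and 893 CPM in WT.

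The sum of the other listed endothelial markers climbed with the number of marker transcripts. With Vwf, Plvap and Cdh5 left out of all totals, the 6 other endothelial markers summed to 3044 CPM in Utx-cKO and 3443 CPM in WT cells without a marker transcript. They summed to 13838 and 13095 CPM in cells with 1, 35637 and 33878 CPM in cells with 2, 48844 and 44160 CPM in cells with 3, and 73402 and 64240 CPM in cells with 4 or more. Aqp1 carried much of this climb: it had 14881 and 11006 CPM at 2 marker transcripts and 40085 and 30392 CPM at 4 or more. Not every gene followed it within the selected cells. Sparcl1 had 26041 CPM at 2 and 24910 CPM at 4 or more in Utx-cKO, but 18647 and 23842 CPM in WT. Gata2 had 3665 and 2829 CPM at 3 and 3091 and 2659 CPM at 4 or more. Tm4sf1 and Rgcc did not follow the climb either. Tm4sf1 had 11265 and 8628 CPM at 2 transcripts and 12424 and 8578 CPM at 4 or more, and Rgcc 1773 and 3036 CPM against 1576 and 2374 CPM. Cells with 4 or more were also deeper, with medians of 62 and 87 transcripts against 46 and 62 at 2.

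**Figure D3:**
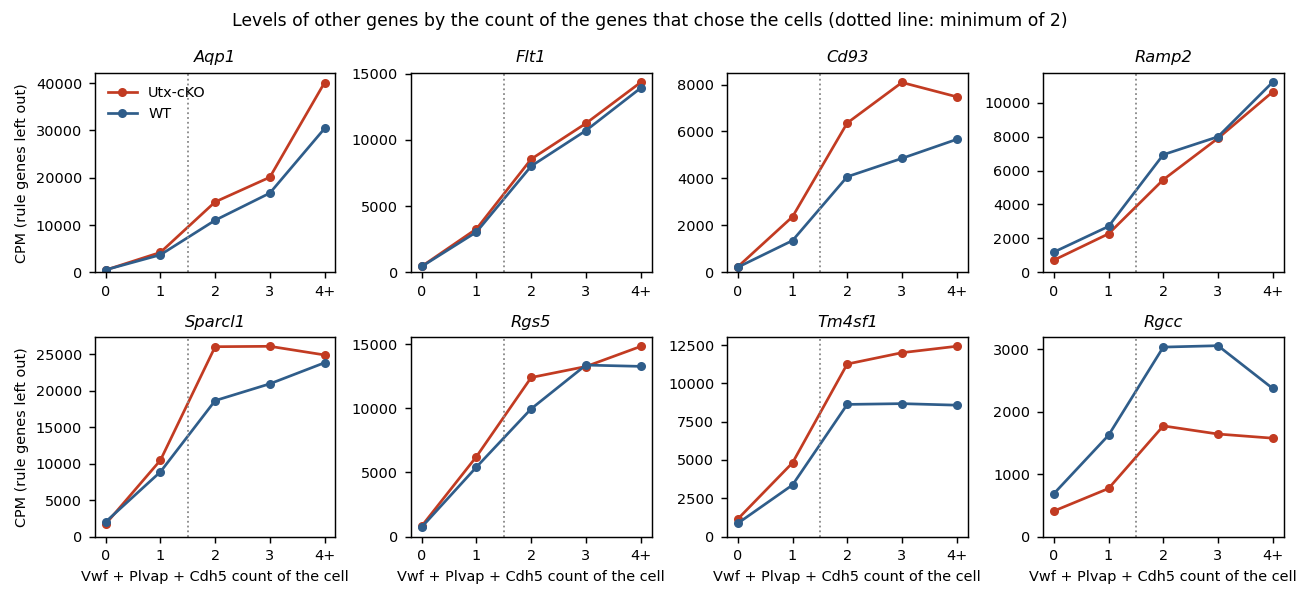
Levels in CPM of 8 genes in cells with 0, 1, 2, 3 and 4 or more transcripts of Vwf, Plvap and Cdh5, for the Utx-cKO and WT sections; the 3 genes are left out of the totals and the dotted line marks the minimum of 2. Aqp1 and Flt1 climb across the whole axis in both sections, while Rgcc does not climb past 3 and is lower in Utx-cKO at each count.

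Transcripts of other cell types were present in the selected cells. Mural markers (Rgs5, Rgs4, Myh11 and Notch3) summed to 29454 CPM in Utx-cKO and 24818 CPM in WT endothelial cells, against 5833 and 5229 CPM in all other cells. Fibroblast markers summed to 13998 and 14112 CPM, macrophage markers to 7985 and 8035 CPM and T cell markers to 6417 and 5673 CPM. The 2 mast cell markers on the panel, Kit and Gata2, summed to 3625 and 3024 CPM. Gata2 is also one of the endothelial genes above, and 2.22% and 4.74% of endothelial cells held at least 2 transcripts of this pair. Pparg, the adipocyte marker on the panel, had 3748 and 3521 CPM, against 1601 and 1401 CPM in other cells. Dendritic cell (502 and 598 CPM), melanocyte (367 and 274 CPM) and Schwann cell markers (282 and 281 CPM) were scarce. Keratinocyte markers summed to 5523 and 3118 CPM, far below the 118728 and 108490 CPM of other cells. At least 2 transcripts of another type's markers were held by 57.5% (54.8 to 60.2) of Utx-cKO and 61.9% (59.4 to 64.2) of WT endothelial cells. Of the listed skeletal muscle and blood cell markers, 0 are on the panel. The muscle-abundant genes Cryab and Tnnt1 are on it, and their values are given with the results they moved with.

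The endothelial cells differed among themselves in which marker they held. All 3 were found in 18.9% of Utx-cKO and 22.2% of WT cells, Plvap with Cdh5 in 22.7% and 24.1%, Vwf with Plvap in 15.1% and 12.1%, and Vwf with Cdh5 in 14.3% and 9.68%. Cdh5 alone was held by 17.3% (15.2 to 19.4) of Utx-cKO and 21.8% (19.8 to 23.9) of WT cells. Plvap alone was held by 8.13% and 6.68% and Vwf alone by 3.60% and 3.43%. With a median of 53 or 72 transcripts per cell, a marker at 0 may have been missed.

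Cells with Vwf and cells without it differed in the same direction in both sections. In the sentences that follow, the marker genes are left out of the totals, and the first ratio is that of the Utx-cKO section. The 677 Utx-cKO and 760 WT cells with Vwf had more Vim, which encodes the filament protein vimentin, by log2 ratios of 0.65 and 0.73. Aqp1, at 0.72 and 0.59, and Ecscr, at 0.86 and 0.88, were higher in them too. Myh11, the myosin of smooth muscle, was higher by 1.54 (1.31 to 1.77) and 1.67 (1.47 to 1.87). Notch3, a mural receptor, was higher by 0.62 and 0.80. Myh11 and Notch3 were picked out after their values were seen. Flt1 (0.24 and 0.05), Sox17 (0.15 and 0.10) and Cd93 (0.16 and -0.07) differed little or not beyond their intervals.

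Cells without Vwf had more Tpi1, Ldha, Pkm, Scd1, Acsl1 and Rgcc. Tpi1, triosephosphate isomerase, had 6767 CPM with Vwf and 24397 CPM without it in Utx-cKO, and 11666 and 33736 CPM in WT. Ldha, lactate dehydrogenase, had 8722 and 23032 CPM in Utx-cKO, and 13797 and 39140 CPM in WT. Pkm, pyruvate kinase, stood at log2 ratios of -1.09 and -1.23. Scd1, the desaturase that makes oleate, stood at -1.21 and -0.97, and Acsl1, which activates long-chain fatty acids and was picked out after its values were seen, at -1.76 and -1.07. Rgcc had 798 CPM with Vwf and 2547 CPM without it in Utx-cKO, and 1370 and 3789 CPM in WT. Its log2 ratios of -1.68 (-2.31 to -1.08) and -1.47 (-1.84 to -1.11) were the most negative among the listed endothelial genes in both sections. The median depth was equal in Utx-cKO, at 53 transcripts with and without Vwf, and 71 and 72 in WT.

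Plvap split the cells differently from Vwf for the lipid gene Scd1. The 846 Utx-cKO and 1043 WT cells with Plvap had more Scd1, by 0.68 (0.46 to 0.90) and 0.38 (0.28 to 0.49), where cells with Vwf had less. Aqp1 was higher with Plvap by 0.98 and 0.88. Tpi1 (-1.80 and -1.89), Ldha (-1.58 and -1.67) and Pkm (-1.25 and -1.69) were lower with Plvap, as with Vwf. Cryab, a small heat shock protein abundant in muscle, was lower by 1.98 and 2.16 on the log2 scale. Cells with Cdh5 showed the reverse for the glycolysis genes, with Tpi1 at 1.26 and 2.28 and Ldha at 1.07 and 1.98. A cell without Vwf or Plvap must hold Cdh5 to be selected, so the 3 splits are not independent of each other.

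**Figure D4:**
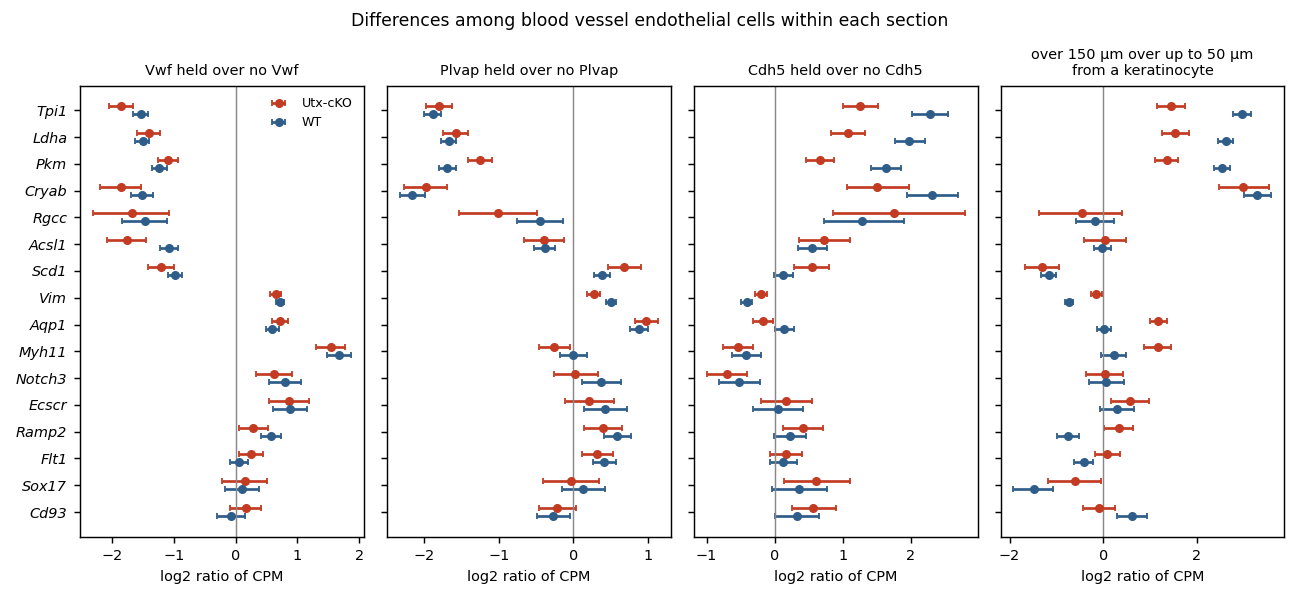
Log2 ratio of CPM with its 95% counting interval for 16 genes, within the Utx-cKO section (upper point of each pair) and the WT section. The first 3 panels set cells with a marker transcript over cells without it, and the last sets endothelial cells over 150 µm from a keratinocyte over those up to 50 µm away. Tpi1, Ldha, Pkm and Cryab lie left of 0 for Vwf and Plvap and right of 0 for Cdh5 and for distance.

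Distance from the epithelium gave a further axis. The nearest cell with at least 5 keratinocyte transcripts lay at a median of 70.0 µm (quartiles 36.1 and 128) from Utx-cKO and 75.6 µm (36.1 and 139) from WT endothelial cells. Other cells that were not keratinocytes lay nearer, at 41.0 and 47.9 µm. Strip medians ranged widely and overlapped, at 113, 145, 50.1 and 84.9 µm in Utx-cKO and 109, 71.4, 40.5 and 179 µm in WT. The difference of the sections changed sign without strip 3 of the Utx-cKO section, to 32.1 µm. It also changed sign without WT strip 1 (9.41 µm) or WT strip 4 (9.66 µm), so no order of the sections holds. Endothelial cells were most frequent at 50 to 150 µm, where they were 10.0% of Utx-cKO and 11.96% of WT cells that were not keratinocytes. Up to 50 µm they were 3.86% and 5.63%, and over 150 µm 6.57% and 8.30%.

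Gene levels differed with that distance in both sections, though distance was not separated from strip or depth. Endothelial cells over 150 µm from a keratinocyte had more Cryab than those up to 50 µm away, at 10703 and 1341 CPM in Utx-cKO and at 24963 and 2542 CPM in WT. Ldha was higher far away by log2 ratios of 1.54 in Utx-cKO and 2.62 in WT, Tpi1 by 1.45 and 2.97 and Pkm by 1.35 and 2.53. The change was not steady in Utx-cKO. Ldha and Tpi1 were highest there at 50 to 150 µm, at 21082 and 21242 CPM, against 16327 and 14815 CPM beyond. Near the epithelium, Scd1 was higher than far away, with far-over-near ratios of -1.31 and -1.16. So were the matrix genes Postn, which encodes periostin (-1.18 and -2.10), and Igfbp3, a binding protein of insulin-like growth factors (-1.10 and -1.71), both picked out after their values were seen. Scd1 was highest at 50 to 150 µm, at 12393 CPM in Utx-cKO and 27758 CPM in WT, against 11958 and 25234 CPM nearer. Sox17 was lower far away, by 0.61 (0.06 to 1.18) in Utx-cKO and 1.48 (1.07 to 1.92) in WT on the log2 scale. Vwf went opposite ways, at 0.59 (0.38 to 0.80) in Utx-cKO and -0.55 (-0.75 to -0.36) in WT. Plvap was at -0.04 in Utx-cKO and -0.92 in WT. Neither difference between the sections was tested. Cells over 150 µm and up to 50 µm away held medians of 58 and 52 transcripts in Utx-cKO, and 86 and 65 in WT. The levels of Vwf and Plvap, which chose the cells, depend on depth. WT strips 1 and 4, at median distances of 109 and 179 µm, were also the WT strips highest in Ldha, Tpi1 and Cryab. The part of strip, depth or muscle RNA in the ratios by distance was not tested.

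Endothelial cells lay beside cells with mural transcripts and beside each other more often than other cells did. A cell with at least 2 mural transcripts had its centre within 20 µm of 57.6% (54.9 to 60.3) of Utx-cKO and 57.6% (55.1 to 60.0) of WT endothelial cells. Of other cells that were not keratinocytes, 30.1% and 29.5% had such a neighbour. Where that neighbour was allowed no marker transcript, the shares were 36.3% and 28.3%, against 23.2% and 21.2%. Cells with at least 2 mural transcripts were not mural cells alone. Of all such cells in the section, 22.4% in Utx-cKO and 16.0% in WT held at least 5 keratinocyte transcripts. With those left out and marker transcripts allowed, the shares were 56.6% and 56.7%, against 25.8% and 26.7%. Another endothelial cell was within 20 µm of 59.8% and 56.6%, against 18.3% and 20.7% of other cells. Macrophages were near 40.8% and 47.0%, against 31.5% and 39.6%, and fibroblasts near 69.6% and 69.8%, against 63.9% and 70.9%. Keratinocytes were near fewer of them, 14.0% and 11.9%, against 33.3% and 28.3%. Linked at 20 µm, the cells formed 771 groups in Utx-cKO and 975 in WT, of which the largest held 13 and 18 cells. Cells with no such neighbour made up 40.2% and 43.4%.

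The sections were then compared within the endothelial cells. Of 480 genes, 240 had at least 100 counts over both sections in these cells. Of these, 22 were at least 1.5 times higher in Utx-cKO, or 9.17%, and 17 at least 1.5 times lower, or 7.08%. The median log2 ratio of Utx-cKO over WT was 0.07. The lowest Utx-cKO strip exceeded the highest WT strip in 4 genes, 1.67%, and the highest Utx-cKO strip was under the lowest WT strip in 3, 1.25%. The 4 were Akr1c18, Elovl1, Notch3 and Ugcg, and the 3 were Acsl1, Insig1 and Rgcc. On mean counts per cell in place of CPM, the shallower Utx-cKO section moved the median log2 ratio to -0.40, and 5 genes were then higher and 79 lower.

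Summed over each section, most endothelial genes stayed under 1.5-fold. Of the 15 leading genes, Myct1 alone was past it, at a log2 ratio of 0.68 (0.44 to 0.92). Over nuclei alone it was at 0.45, and with cells holding other types' markers left out at 0.52. Its Utx-cKO strips had 2532, 4406, 3418 and 2891 CPM, and its WT strips 2449, 4666, 890 and 3716 CPM. WT strip 3 was the low strip, and without it the ratio was 0.19, as it was 0.58 without Utx-cKO strip 2. The same strip lay lowest for Cd93, at 2884 CPM, and for Tm4sf1, at 3525 CPM. The ratio of Cd93 was 0.50 and that of Tm4sf1 0.45, and without WT strip 3 they were 0.16 and -0.02. Vwf stood at 0.45 (0.34 to 0.55), with Utx-cKO strips between 14126 and 18847 CPM and WT strips between 10918 and 15095 CPM. Vwf, Plvap and Cdh5 chose the cells, which needed 2 of their transcripts at any depth, so their ratios depend on depth as well. The 3 genes summed to 66694 CPM in WT strip 2, at a median of 39 transcripts, and to 43513 CPM in WT strip 1, at 84. The part of the selection in their ratios was not tested. Gng11 (0.39), Ecscr (0.35), Plvap (0.28), Aqp1 (0.26), Sparcl1 (0.22), Cdh5 (0.14) and Rgs5 (0.13) were slightly higher. Sox17 (0.04), Flt1 (-0.01), Gpr4 (-0.04) and Ramp2 (-0.21) were close to 0 or slightly lower. These small directions depend on the scale: on mean counts per cell Aqp1 stood at -0.21 and Plvap at -0.19, Vwf and Tm4sf1 both at -0.02, and Myct1 at 0.21. They also varied with distance from the epithelium. Over 150 µm from a keratinocyte, Vwf stood at 1.19 (0.98 to 1.41), Plvap at 0.91 (0.70 to 1.12), Aqp1 at 0.83, Ecscr at 0.74, Tm4sf1 at 0.65 and Ramp2 at 0.63. Up to 50 µm away, Vwf (0.05) and Plvap (0.03) were near equal, Aqp1 was at -0.32 and Ramp2 at -0.46, while Cd93 was at 1.06 (0.75 to 1.37) and Tm4sf1 at 0.86. Endothelial cells over 150 µm away held medians of 58 transcripts in Utx-cKO and 86 in WT, so the values of Vwf and Plvap there carry the same limit. These values by distance were picked out after they were seen.

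Kdm6a, the gene deleted in the epithelium, was measured in endothelium as well. It had 218 counts in Utx-cKO and 420 in WT endothelial cells, or 2670 and 3024 CPM. The log2 ratio of -0.18 (-0.42 to 0.06) includes 0, and the strips overlapped, at 2438, 2308, 2621 and 3781 CPM in Utx-cKO and 2804, 2196, 3400 and 2890 CPM in WT. All other cells had 2371 and 2757 CPM, a ratio of -0.22. It is not known here whether the probes bind the deleted stretch, so these counts do not check the genotype. Of the 7 chromatin regulators compared, 0 were past 1.5-fold (median -0.01), among them Kmt2d, a methyltransferase that works in the same complex as Kdm6a, at 0.20 (0.03 to 0.38).

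Rgcc was the listed endothelial gene that was lower in Utx-cKO. Its strips had 1594, 1049, 1824 and 1001 CPM in Utx-cKO and 1944, 2059, 3080 and 3028 CPM in WT. The groups of strips did not overlap, as for 1.25% of all genes compared in this direction. The gene was found in 8.1% of Utx-cKO and 16.7% of WT endothelial cells. The log2 ratio was -0.72 (-1.02 to -0.42). It was negative at each distance from the epithelium, at -0.94 up to 50 µm, -0.44 between 50 and 150 µm and -1.22 beyond. Without WT strip 3 it was -0.51, with cells holding other types' markers left out -0.48 and with every cell thinned to 20 transcripts -0.53, each under 1.5-fold. Other cells within 20 µm of an endothelial cell, 4395 in Utx-cKO and 4542 in WT, showed a ratio of -1.12, and all other cells -0.77.

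Among genes with at least 100 counts in each section, Acsl1 and Scd1 of fatty acid handling were farthest apart. Of 7 genes of this list compared, 3 were lower and 1 higher, with a median of -0.30 against 0.07 for all genes, of which 7.08% were lower and 9.17% higher. Acsl1 had 5438, 7063, 5493 and 5115 CPM in the Utx-cKO strips and 11458, 9332, 15187 and 10781 CPM in the WT strips. Every Utx-cKO strip lay below every WT strip, as for 1.25% of all genes compared, at a log2 ratio of -1.16 (-1.31 to -1.01), or 2.23 times lower. The ratio was -0.88 in cells within 20 µm and -0.55 in all other cells, and between -1.66 and -0.76 over the distance zones. Scd1 had 3094, 20699, 9645 and 9563 CPM in Utx-cKO and 14916, 60244, 22183 and 29131 CPM in WT, at -1.07 (-1.18 to -0.96). Its strips overlapped. The ratio of Scd1 was -0.20 in cells within 20 µm and 0.24 in all other cells. Over the distance zones Scd1 kept between -1.22 and -1.08. Dbi, an acyl-CoA binding protein, was at -0.74 (-0.94 to -0.55), and Fasn, fatty acid synthase, at -0.30. The adipocyte marker Pparg was at 0.09, and the part of fat cell RNA in these ratios was not tested. Elovl6, a fatty acid elongase, was higher, at 1.33 (0.82 to 1.84), from 84 counts in Utx-cKO and 57 in WT. It was far less abundant in endothelial than in other cells, with 1029 and 410 CPM against 7437 and 2687 CPM.

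Glycolysis and hypoxia genes were lower or near equal in Utx-cKO. Of 5 compared, 3 were at least 1.5 times lower and 0 higher (median -0.64), against 7.08% of all genes lower and a median of 0.07. Ldha had 21003, 10140, 14886 and 15234 CPM in the Utx-cKO strips and 38055, 11527, 15739 and 30874 CPM in the WT strips, which overlap. The log2 ratio was -0.83 (-0.92 to -0.74), and -0.37 without WT strip 1. It was -1.77 in cells over 150 µm from a keratinocyte, 0.06 between 50 and 150 µm and -0.69 nearer. Tpi1 was at -0.64 (-0.74 to -0.54). Its strips overlapped, at 17815, 6643, 16480 and 13455 CPM in Utx-cKO and 32205, 6724, 14296 and 26608 CPM in WT. The lactate exporter Slc16a3 was at -0.74 (-1.20 to -0.30), at -0.03 without WT strip 1, at -0.18 over nuclei alone and at 0.64 after thinning. WT strip 1 was the highest strip for Ldha, Tpi1 and Slc16a3, the 3 lower genes. Pkm (-0.32) and the mitochondrial subunit gene Ndufa4l2 (-0.36) stayed under 1.5-fold. Cryab, which went with these genes in the splits above, had 8251, 7483, 4613 and 4782 CPM in Utx-cKO and 14804, 2745, 6427 and 17203 CPM in WT, at -0.99 (-1.14 to -0.84). WT strips 1 and 4 were high for Ldha, Tpi1 and Cryab alike, and the part of muscle RNA in these ratios was not tested. Cells within 20 µm had -0.62 for Ldha and -0.87 for Cryab.

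The other lower genes named had few counts, or depended on a strip. Irf4, a transcription factor of lymphocytes and dendritic cells, had 31 counts in Utx-cKO and 161 in WT. Its ratio of -1.61 (-2.21 to -1.05) rested largely on WT strip 3, at 2012 CPM, and was -0.61 without it. Pla2g2d, a secreted phospholipase of dendritic cells and macrophages, was at -1.11, and at -0.26 without WT strip 1. Il1r2, the decoy receptor of interleukin-1, was at -1.07, at -0.44 without WT strip 3 and at -0.51 after thinning. The cell cycle gene Top2a was at -0.87. Leaving out strip 3 brought it near 0, to -0.09 for the Utx-cKO strip and -0.13 for the WT strip, and with cells holding other types' markers left out it was at -0.21. Cd1d1, which presents lipid antigens, was at -0.92 (-1.44 to -0.43), and at -0.095 over nuclei alone. The Wnt antagonist Sfrp1 was at -0.77, and at 0.39 with cells holding other types' markers left out. All 17 lower genes had a negative ratio in cells within 20 µm too, as 41.7% of all genes compared did. At least 1.5 times lower there were 7 of them, and 3.75% of all genes.

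Many of the higher genes were scarce in endothelium. Of the 22, 15 had fewer than 100 counts in each section, and 12 had a lower CPM in endothelial than in other cells of both sections. Among the 17 lower genes, 6 had such a lower CPM. The shares of all genes compared that met these conditions were not counted. In cells within 20 µm, 20 of the 22 had a positive ratio, as did 58.3% of all genes compared, and 8 were at least 1.5 times higher, as were 7.92% of all. Akr1c18, a steroid dehydrogenase, had 1219, 1329, 713 and 890 CPM in the Utx-cKO strips and 243, 549, 427 and 138 CPM in the WT strips. The strips did not overlap, as for 1.67% of all genes compared in this direction. The log2 ratio was 1.52 (0.96 to 2.09), but other cells had 4931 and 1647 CPM and cells within 20 µm a ratio of 2.12. Elovl4, an elongase of the skin barrier, was at 1.58 with 820 and 274 CPM, against 10428 and 4704 CPM in other cells. It was at 0.45 with cells holding other types' markers left out and at 0.54 after thinning. Tnnt1, the troponin of slow muscle, was at 1.79, but 52 of its 67 Utx-cKO counts came from strip 2, and without that strip the ratio was -0.093. Anxa8, an annexin, was at 0.87 with 1017 and 554 CPM, against 21387 and 22364 CPM in other cells, at 0.53 without WT strip 1 and at -0.16 after thinning. Keratinocyte markers summed 5523 and 3118 CPM in these cells, and their part in the higher genes was not tested.

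Other higher genes were closer to their level elsewhere in the skin. Ahr, the aryl hydrocarbon receptor, had 2250, 3427, 3061 and 3892 CPM in the Utx-cKO strips and 1626, 3294, 1567 and 2523 CPM in the WT strips, which overlap. Its log2 ratio was 0.76 (0.50 to 1.02), against 0.35 in cells within 20 µm and 0.31 in all other cells, and it was between 0.66 and 0.90 in the distance zones. Both aryl hydrocarbon receptor genes compared, Ahr and Akr1c18, were thus higher on CPM, where 9.17% of all genes were. Ahr stood at 0.29 on mean counts per cell and at 0.47 over nuclei alone. Id2, an inhibitor of basic helix-loop-helix factors, was at 0.93 (0.60 to 1.27), against 0.44 in cells within 20 µm. It was at 0.46 on mean counts per cell and at 0.45 after thinning. Slc8a1, a sodium-calcium exchanger, was at 0.91 (0.59 to 1.23), and at 0.41 without Utx-cKO strip 3. Of the small secreted or cytosolic proteins Stfa1 (1.06), Chil4 (0.92) and Sprr2a1 (0.86), Stfa1 and Sprr2a1 were at 0.49 and 0.51 without WT strip 1. With cells holding other types' markers left out, Stfa1 and Chil4 were both at 0.55.

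**Figure D5:**
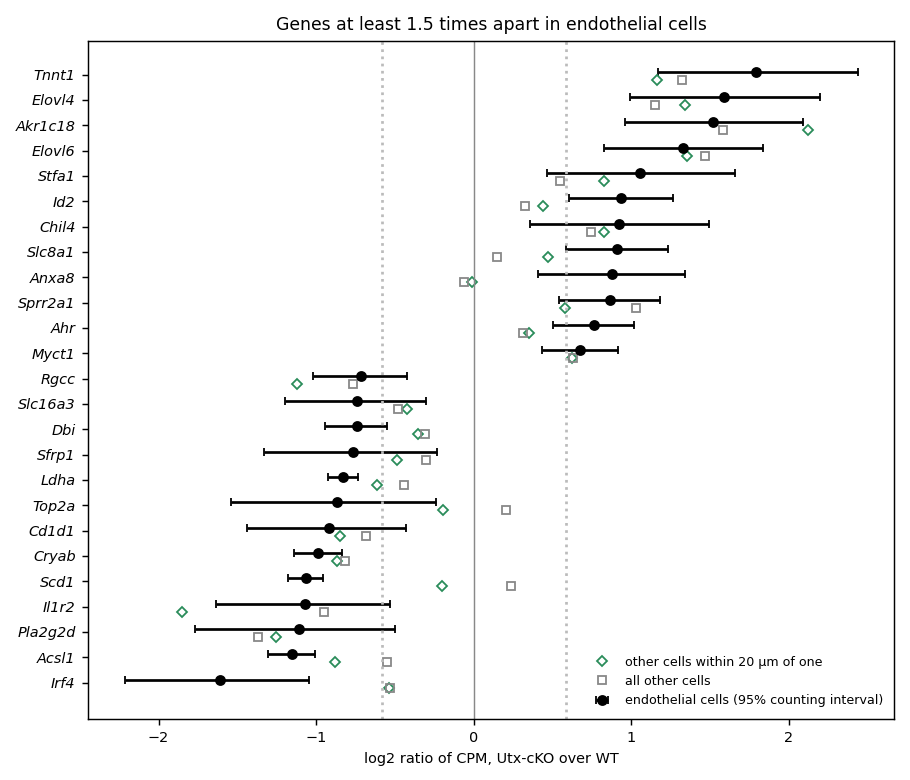
Log2 ratio of CPM, Utx-cKO over WT, in endothelial cells (black, with 95% counting intervals), in other cells within 20 µm of them (diamonds) and in all other cells (squares), for the named genes among the highest and lowest ratios, with Myct1 and Rgcc. Dotted lines mark 1.5-fold. Scd1 lies at -1.07 in endothelial cells but at -0.20 and 0.24 in the others, while Akr1c18 is higher in all 3.

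Other gene lists are given by their counts, with no test. Of 3 Notch genes compared, 0 were past 1.5-fold (median 0.26). Notch3, also a mural marker, was at 0.44 (0.25 to 0.62). Its Utx-cKO strips, between 4407 and 6713 CPM, all lay above the WT strips, between 3222 and 4318 CPM, as for 1.67% of all genes compared. Mural markers together summed to 29454 and 24818 CPM in these cells, and the part of mural RNA in this ratio was not tested. Venous genes had 0 of 3, namely Vwf, Plvap and Nr2f2, the venous nuclear receptor. Vwf and Plvap were used to select the cells, which leaves Nr2f2, at 0.44 (0.27 to 0.60). Endothelial transcription factors had 0 of 3 (median 0.04), matrix genes 0 of 6 (-0.16) and leukocyte adhesion and traffic genes 0 of 3 (-0.30), with the chemokine Cxcl12 at -0.32. Interferon and antigen presentation genes had 2 of 6 lower, Irf4 and Cd1d1, and 0 higher (median -0.22), where 7.08% of all genes compared were lower. Irf4 was at -0.61 without WT strip 3 and Cd1d1 at -0.095 over nuclei alone. Cell cycle genes had 1 of 3 lower, Top2a, and 0 higher, where 7.08% of all genes compared were lower. The others were Mki67, at -0.23, and Ccnd1, at 0.48. All 5 measured genes of that list summed to 3625 CPM in Utx-cKO and 3434 CPM in WT. Of sprouting genes Cxcr4 alone was compared (-0.15), and of prostaglandin genes a single member (-0.08).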

How the data were processed

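Per the labels, paraffin sections of whole skin were probed with a custom panel of 480 genes and negative control probes. The deposited tables hold counts of transcripts per segmented cell, cell positions and areas, and for each transcript its gene, cell and quality score, a score assigned upstream of the deposit. The length unit is taken as µm. The sources used here name no decoding or segmentation software. Outlines of nuclei were left out.

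Transcripts with a score of at least 20 were counted per cell and gene, which equalled the deposited counts in all 52308 Utx-cKO and 40371 WT cells. Counts were summed over cells of a set, scaled to CPM and compared as log2 ratios. Intervals are exact at 95% (Poisson, conditional binomial, Clopper-Pearson). Genes needed 100 counts over both sections. Strips are connected areas of at least 1000 cells. Other types were called from at least 2 marker counts, keratinocytes from 5. The members, rule and gene lists were chosen with earlier results of these data known.

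Named genes are the marker genes, Kdm6a, the listed endothelial genes, the 15 leading genes (found in at least 5% of endothelial cells), the 12 highest and 12 lowest ratios, the 5 largest differences in each split and the largest members of lists. A value that met this rule is not reported here. The ratio computation was tested on simulated data. Python 3.11.15, numpy 2.4.6, pandas 2.3.3, scipy 1.17.1 and matplotlib 3.10.9 were used. Alternatives covered quality, cell and marker minimums, depth, scaling, nuclei, neighbour distances and leaving out each strip.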

Additional observations from a re-analysis of the deposited data

How the results depend on the processing

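No paired analysis was possible because each genotype has 1 section. The counts of 22 higher and 17 lower genes moved under several settings. Higher genes numbered 11 with scores of at least 30, 9 with 3 marker counts, 52 with 1, 3 over nuclei alone, 8 with mixed cells left out, 5 on mean counts per cell, 5 after thinning and 48 with a gene minimum of 50. Lower genes numbered 11 with mixed cells left out, 79 on mean counts per cell, 7 after thinning and 33 without Utx-cKO strip 3. Some of these settings also leave fewer genes with enough counts. The ratio of endothelial shares, 0.724, was 0.882 after thinning, 0.639 with 3 marker counts and 0.824 with 1. It was 0.819, 0.555 and 0.788 without Utx-cKO strips 1, 3 and 4, and 0.792 without WT strip 3. The ratio of shares near a cell with mural transcripts, 1.00, was 0.826 without Utx-cKO strip 3, 1.13 without WT strip 3 and 1.28 with neighbours that hold no marker transcript. The distance to keratinocytes, 5.58 µm less in Utx-cKO (-5.58), changed to -13.0 and 32.1 µm without Utx-cKO strips 2 and 3, and to 9.41, -44.1 and 9.66 µm without WT strips 1, 3 and 4. Log2 ratios of 4 genes reversed: Sfrp1 0.39 with mixed cells left out, Slc16a3 0.64 and Anxa8 -0.16 after thinning, and Tnnt1 -0.093 without Utx-cKO strip 2. The cause was not tested. Of 756 log2 ratios of 42 genes under these settings, those 4 included, 608 lay within the counting interval of the reported value and 144 outside it. Of 304 medians of 16 lists, 128 moved by at least 0.1. The neighbours without marker transcripts or with few keratinocyte transcripts, and shares among cells that were not keratinocytes, were added after the data were seen. Depth limits genes with few counts.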

Other observations

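Strips differed within a section in genes that the sections as a whole did not separate. H2-K1, a class I antigen-presenting molecule, had 38350, 23287, 20338 and 47815 CPM in the endothelial cells of the Utx-cKO strips, and 28897, 28132, 18658 and 24360 CPM in those of the WT strips. Strips 1 and 4 of the Utx-cKO section lay above every WT strip and strips 2 and 3 did not, and the ratio of the sections was 0.13 on the log2 scale. Fasn ranged from 1688 to 10909 CPM over the Utx-cKO strips and from 5367 to 31700 CPM over the WT strips, with WT strip 2 highest, as it was for Scd1 at 60244 CPM. Strip 2 of the WT section held 156 endothelial cells, the fewest of any strip, with 7287 transcripts in all.

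The selected cells held 64.4% of Vwf transcripts found in cells of the Utx-cKO section and 77.1% of those in the WT section. For Plvap the shares were 61.6% and 71.8%, and for Cdh5 49.7% and 63.5%. The rest lay in cells under the minimum, in cells with lymphatic genes or in cells with fewer than 20 transcripts.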
